A study of Mus musculus with 6 samples.

Results

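Transcripts of 8 genes for the making and breaking of glycogen were followed in mouse induced pluripotent stem cells (iPSCs) after intermittent compressive force (ICF). The genes were chosen by the known role of their products and not by a measured value, though earlier results of these data were known. They are Gys1, Gbe1, Gyg, Ugp2 and Ppp1r3c on the side of synthesis and Pygl, Pygb and Pygm on the side of breakdown. All 8 were among the 50686 genes counted, and all 8 passed the filter on low counts that left 16729 genes for testing. The iPSCs had been reprogrammed from gingival fibroblasts and grown on SNL feeder cells. Embryoid bodies of these cells were treated with retinoic acid, attached to gelatin and kept in serum-free medium for 24 h. One group, called ICF, was loaded at 1.5 g per square centimetre and 0.23 Hz (3 samples), and the control group was left unloaded (3 samples). Age, sex and strain of the mice are not given in the labels, which number the samples of each group as donors 1 to 3, and the number is used as the replicate here.

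Glycogen is a branched polymer of glucose that cells keep as a store. Glycogenin, encoded by Gyg, primes a new chain, and glycogen synthase, encoded by Gys1 outside the liver, lengthens it from UDP-glucose, which the enzyme encoded by Ugp2 makes. The branching enzyme, encoded by Gbe1, adds the branch points, and Ppp1r3c encodes a subunit that brings protein phosphatase 1 to glycogen, where it activates the synthase. Glycogen phosphorylase releases glucose 1-phosphate from the chains and has a liver form (Pygl), a brain form (Pygb) and a muscle form (Pygm). Pluripotent cells are known to hold glycogen, and in many cell types low oxygen raises transcripts of several of these genes.

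Counts on genes summed to between 28711166 and 34194413 per sample. Multiples of 4 made up 89.0% of the nonzero counts of ICF replicate 3, against 20.3% to 21.5% in the other samples. All 8 glycogen genes had such a count there, so the low counts of that sample move in coarse steps. It also had fewer genes with a count, 20802 against 24340 to 24889 in the other samples. Its counts may therefore overstate the number of reads behind them, and in 1 alternative setting they were divided by 4. The cause was not tested. The summed level of 5 pluripotency markers was 1757.5 to 2016.3 CPM (counts relative to the TMM-scaled library size) in the control and 1783.7 to 1907.9 CPM with ICF, and 0 of the 5 passed edgeR's test, also at an unadjusted p of 0.05 and with DESeq2. Of 6 mesenchymal or fibroblast markers, 1 rose, Col1a1, a collagen gene, by 0.75 on the log2 scale. With the replicate number as a block 3 of the 6 rose, Col1a1, Col1a2 and Twist1, and at an unadjusted p of 0.05 without it 2 were higher. The summed level of the 6 was 219.8 to 247.7 CPM in the control and 241 to 269 CPM with ICF. Of 4 genes that respond to retinoic acid, 1 fell, Cyp26a1, by 0.70 on the log2 scale, and their summed level was 42.7 to 47.6 CPM in the control and 28.0 to 33.5 CPM with ICF. The part of these markers in the results below was not tested, and in whole cultures fewer cells of a type and less RNA per cell cannot be told apart.

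Of the 8 genes, Pygl fell with ICF, and the other 7 did not pass the test. All 8 fold changes were below 0, between -1.40 and -0.049 on the log2 scale, with a median of -0.22, while the median over all genes tested was 0.0026. Counts were compared with edgeR's quasi-likelihood test at a Benjamini-Hochberg adjusted p of 0.05, over all genes tested. In that test 4.38% of all genes were lower with ICF, against 1 of the 8, and 3.47% were higher, against 0 of the 8. At an unadjusted p of 0.05, 4 of the 8 were lower, against 13.2% of all genes, and 0 were higher, against 12.4%. With the replicate number as a block in the same test, Gys1, Gbe1 and Ppp1r3c passed as well, so 4 of the 8 were lower, against 15.3% of all genes. DESeq2 called 3 of the 8 lower, against 7.26% of 14745 genes, and also 3 with the block, against 11.7% of 14193. These shares are over the genes with an adjusted p in DESeq2, which Ppp1r3c did not have. In 3 of the 8, Pygl, Gys1 and Gbe1, every ICF sample was lower than every control sample, against 15.7% of all genes tested.

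**Figure D1:**
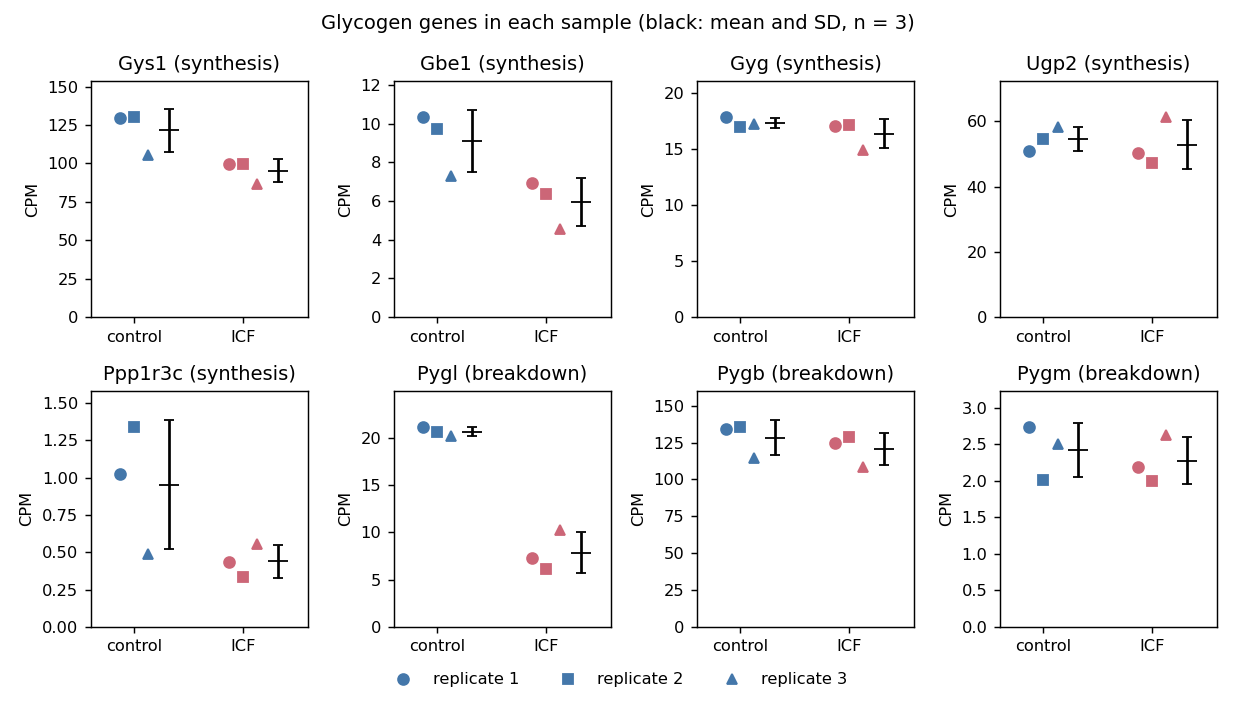
Level of each of the 8 glycogen genes in CPM (vertical axes, from 0) in the 3 control and 3 ICF samples, with symbols for the replicate number and black bars for the mean and SD (n = 3). Pygl lies at 20.1 to 21.1 CPM in the control and at 6.11 to 10.2 CPM with ICF, and Gys1 and Gbe1 also do not overlap between the groups.

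Pygl encodes the liver form of glycogen phosphorylase and spans 70190811 to 70231488 of chromosome 12 (GRCm38, reverse strand). Its level was 21.1, 20.6 and 20.1 CPM in control replicates 1 to 3 and 7.23, 6.11 and 10.2 CPM in ICF replicates 1 to 3. The control samples lay close together, and all 3 ICF samples lay far below them, with replicate 3 the highest of the 3. The mean went from 20.6 ± 0.50 CPM (SD, n = 3) to 7.85 ± 2.12 CPM (SD, n = 3), which is 2.63-fold lower. On the log2 scale the fold change was -1.40 ± 0.22 (SE, adjusted p = 0.00242, edgeR), and Pygl was lower in 3 of 3 same-numbered pairs. Leaving out any 1 of the 6 samples did not end the call, with log2 fold changes from -1.62, without ICF replicate 3, to -1.24, and edgeR adjusted p-values from 0.00016 to 0.0198. Among the possible 75-base reads of its transcript, 0 occurred in another gene. Of 5 liver markers 2 were high enough to test and neither passed without the block, while Apoa1, an apolipoprotein gene, was lower with it (adjusted p = 0.0303, edgeR, log2 difference -0.82). The summed level of the 5 was 2.63 to 4.22 CPM in the control and 2.07 to 3.43 CPM with ICF. Alb, the albumin gene that defines liver, lay between 0 and 0.029 CPM.

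Pygb, the gene of the brain form, did not pass the test. Its span on chromosome 2 is 150786735 to 150831758. Its level was 134.4, 135.8 and 114.8 CPM in the control and 124.7, 129.1 and 108.7 CPM with ICF, so the groups overlapped and replicate 3 was the lowest sample of each. On the log2 scale it differed by -0.087 ± 0.11 (SE, adjusted p = 0.589, edgeR). The replicate block gave an adjusted p of 0.206. Of 4 astrocyte markers, S100b had 0 counts, 1 was high enough to test and did not pass, and the summed level ran from 13.1 to 18.5 CPM in the control and from 15.8 to 21.1 CPM with ICF. Nearly all of this sum was Aldh1l1, at 13.0 to 18.3 CPM and 15.7 to 20.9 CPM, while Gfap and Aqp4 stayed at or below 0.28 CPM. Pygm, the gene of the muscle form, was expressed at a low level of 2.42 ± 0.37 CPM (SD, n = 3) in control samples and 2.27 ± 0.32 CPM (SD, n = 3) under ICF, a log2 difference of -0.093 ± 0.17 (SE, adjusted p = 0.803, edgeR). Its 3 control samples, at 2.74, 2.01 and 2.50 CPM, overlapped with the ICF samples at 2.19, 2.00 and 2.62 CPM. Of 5 skeletal muscle markers 3 were high enough to test and 0 passed in edgeR, also at an unadjusted p of 0.05 and with DESeq2, and the summed level was 72.8 to 73.6 CPM in the control and 65.8 to 74.4 CPM with ICF. Most of this sum was Mylpf, at 67.1 to 69.1 CPM and 62.5 to 68.8 CPM, while Ckm and Myog stayed at or below 0.14 CPM.

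The isozymes were also compared within each sample, which takes away the scaling between libraries. The log2 ratio of Pygl to Pygb stood at -2.67, -2.72 and -2.51 in control replicates 1 to 3 and at -4.11, -4.40 and -3.41 in ICF replicates 1 to 3. It was lower by 1.34 with ICF, and every ICF sample lay below every control sample (p = 0.1 by an exact permutation test, two-sided, which is the lowest p possible with 3 samples a group). Levels per kilobase of exon, from the merged exons of each gene, gave the makeup of the phosphorylase transcripts. Of the 3 forms together, Pygl made up a share of 9.86% ± 0.65 (SD, n = 3) without load and 4.29% ± 1.48 (SD, n = 3) under ICF. Pygb made up 87.7% ± 1.05 (SD, n = 3) and 93.1% ± 2.04 (SD, n = 3), and Pygm 2.49% and 2.64%. The brain form led in every sample, and the sum of the 3 forms was 30.4 ± 2.48 CPM per kilobase (SD, n = 3) in control samples and 27.0 ± 1.83 (SD, n = 3) under ICF.

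**Figure D2:**
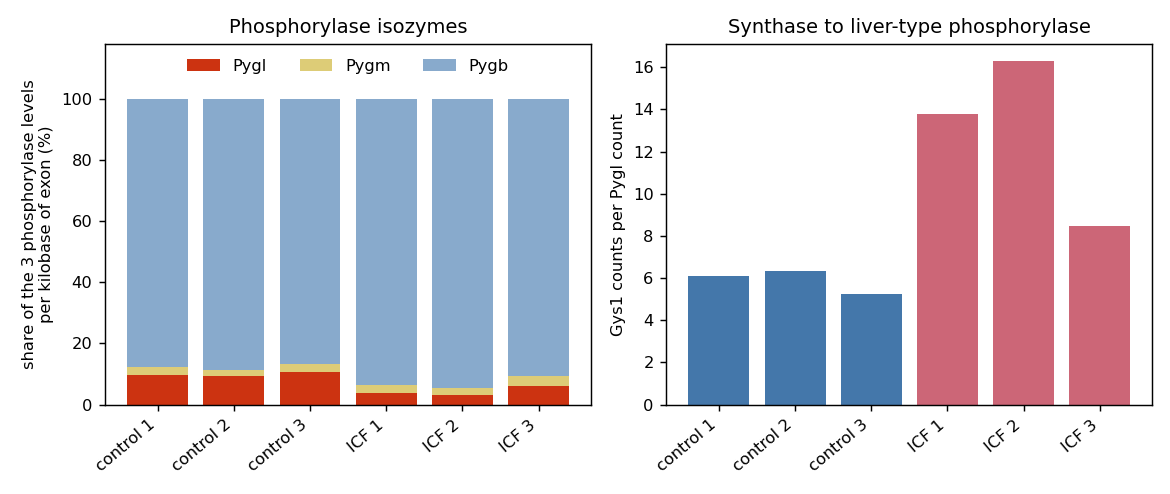
Left, the share of each phosphorylase form in the summed level of the 3 forms per kilobase of exon (%, vertical axis from 0) in each sample; right, Gys1 counts per Pygl count (vertical axis from 0) in each sample. The share of Pygl is 9.37% to 10.6% in the control samples and 3.13% to 5.95% in the ICF samples, and the ratio of Gys1 to Pygl is 5.23 to 6.33 in the control and 8.49 to 16.3 with ICF.

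The promoters of Pygl and Pygb are shown because the ratio between these isozymes moved with ICF, and those of Gys1 and Gbe1 because they are the other genes whose groups did not overlap. Each is the stretch of 250 bases before the RefSeq start site, from RefSeq sequence of GRCm38.p6, written 5′ to 3′ on the gene's strand. Capitals mark ACGTG or GCGTG on either strand, where the reverse strand reads CACGT or CACGC. These are the core letters of the element that hypoxia-inducible factors bind, and they overlap with the E-box CACGTG, to which other factors bind. The windows lie at chr12:70227684-70227933 on the reverse strand for Pygl and, on the forward strand, at chr2:150786546-150786795 for Pygb, chr7:45434589-45434838 for Gys1 and chr16:70313699-70313948 for Gbe1. The Pygl window lies inside the span of the gene given above, which reaches to 70231488. Its RefSeq start is thus within that span and not at the outer end.
Pygl: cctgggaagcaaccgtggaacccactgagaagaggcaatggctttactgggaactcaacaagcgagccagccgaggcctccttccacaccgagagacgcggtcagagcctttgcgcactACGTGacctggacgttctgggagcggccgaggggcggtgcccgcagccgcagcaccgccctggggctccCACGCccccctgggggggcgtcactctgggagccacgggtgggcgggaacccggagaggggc
Pygb: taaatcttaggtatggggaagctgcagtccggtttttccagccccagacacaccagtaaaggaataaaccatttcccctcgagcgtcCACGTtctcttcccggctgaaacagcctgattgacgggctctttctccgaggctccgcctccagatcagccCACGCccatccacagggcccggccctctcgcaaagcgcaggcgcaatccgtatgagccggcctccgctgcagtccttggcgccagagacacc
Gys1: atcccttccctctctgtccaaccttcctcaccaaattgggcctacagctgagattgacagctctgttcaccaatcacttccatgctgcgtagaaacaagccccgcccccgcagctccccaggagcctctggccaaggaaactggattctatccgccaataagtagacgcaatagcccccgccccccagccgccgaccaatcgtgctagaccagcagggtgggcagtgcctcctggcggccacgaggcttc
Gbe1: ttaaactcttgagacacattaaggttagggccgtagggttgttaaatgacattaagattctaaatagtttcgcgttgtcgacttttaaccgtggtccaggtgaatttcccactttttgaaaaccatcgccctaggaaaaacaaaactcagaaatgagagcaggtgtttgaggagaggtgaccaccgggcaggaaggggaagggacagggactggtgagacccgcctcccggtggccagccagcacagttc
Pygl had a match that begins 131 bases before the start and another at 62 bases, and Pygb had matches at 163 and 92 bases. Ugp2, which did not pass, had 6 in 1 of its 2 windows, Ppp1r3c had 4, Pygm 2 and Gyg 1. Any part of these letters in the changes was not tested. Gys1 and Gbe1 had none in these windows. RefSeq promoters were found for all 8 genes, in 9 windows since Ugp2 has 2, and 6 of the 9 windows, of 6 genes, held at least 1 match. Among all 32851 windows of the same length, 38.6% held a match. The letters CACGTG stood in the window of Ppp1r3c alone among the 8 genes and in 6.02% of all windows.

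Gys1 encodes the glycogen synthase of tissues other than liver and spans 45434844 to 45456619 of chromosome 7. Its level was 129.3, 130.2 and 105.3 CPM in control replicates 1 to 3 and 99.6, 99.6 and 86.7 CPM in ICF replicates 1 to 3. Every ICF sample was lower than every control sample, and replicate 3 was the lowest sample of each group. The mean was 121.6 ± 14.1 CPM (SD, n = 3) in control samples and 95.3 ± 7.44 CPM (SD, n = 3) under ICF. On the log2 scale this was -0.35 ± 0.12 (SE), which did not pass without the block (adjusted p = 0.0596, edgeR). With the replicate block it passed (adjusted p = 2.97e-06, edgeR), as it did with DESeq2 without the block (adjusted p = 0.0149) and in edgeR without control replicate 3 (adjusted p = 0.0135). Gys1 was lower in 3 of 3 same-numbered pairs. Ruvbl2, a gene on the opposite strand, holds 5.99% of the possible 75-base reads that the longest Gys1 transcript can give, and the strand setting of the counting is not given in the sources used here.

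Gbe1, the branching enzyme gene, spans 70313949 to 70569716 of chromosome 16, and it too passed with the block but not without it. Its level was 10.3, 9.71 and 7.31 CPM in the control and 6.91, 6.39 and 4.56 CPM with ICF. The ICF samples again lay below all control samples, but by a small gap, since control replicate 3 was close to ICF replicate 1. On the log2 scale the difference was -0.61 ± 0.24 (SE, adjusted p = 0.0822, edgeR), and Gbe1 was lower in 3 of 3 same-numbered pairs. Adjusted p-values under the threshold came from edgeR with the block (8.80e-05), DESeq2 (0.0268) and edgeR without control replicate 3 (0.0378).

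Ppp1r3c, the gene of the glycogen-targeting phosphatase subunit, had the lowest level of the 8 and spans 36731731 to 36736653 of chromosome 19. It was covered by 30, 42 and 14 counts in the control and 15, 11 and 16 counts with ICF, or 1.03, 1.34 and 0.49 CPM against 0.43, 0.33 and 0.55 CPM. The groups overlapped, since control replicate 3 lay below ICF replicate 3, and ICF was lower in 2 of 3 same-numbered pairs. Its log2 difference of -1.13 ± 0.44 (SE) did not pass (adjusted p = 0.125, edgeR). In edgeR the adjusted p was 0.0262 with the block and 0.0376 when control replicate 3 was left out. DESeq2 gave no adjusted p at this count.

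Gyg and Ugp2 did not pass the test with or without the block. Gyg, the glycogenin gene, was at 17.8, 16.9 and 17.2 CPM in the control and 17.1, 17.1 and 14.9 CPM with ICF, or -0.081 ± 0.069 on the log2 scale (SE, adjusted p = 0.624, edgeR). Ugp2, whose enzyme makes UDP-glucose for several pathways, was at 51.0, 54.5 and 58.4 CPM in the control and 50.2, 47.1 and 61.3 CPM with ICF. The groups overlapped in both genes, and for Ugp2 the highest and the lowest sample were both in the ICF group. It differed by -0.049 ± 0.13 on the log2 scale (SE, adjusted p = 0.806, edgeR).

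Synthesis and breakdown were compared as groups without a test. The 5 synthesis genes had a median log2 fold change of -0.35 and the 3 breakdown genes one of -0.093. The mean log2 CPM of the synthesis genes minus that of the breakdown genes was -0.26, -0.037 and -0.46 in control replicates 1 to 3 and -0.057, -0.065 and -0.31 in ICF replicates 1 to 3. These values overlapped, and their means of -0.25 ± 0.21 (SD, n = 3) in control samples and -0.15 ± 0.15 (SD, n = 3) under ICF differed by less than the spread between replicates. The difference of 0.11 between these means became -0.040 when the levels per kilobase were summed on each side. The ratio of Gys1 to Pygl moved more, but Pygl was a minor form, at 9.86% of the phosphorylase level in the control and 4.29% with ICF. Against Pygb, the main form, Gys1 went the other way. Gys1 differed by -0.35 and Pygb by -0.087 on the log2 scale, and neither passed without the block. With it Gys1 passed (adjusted p = 2.97e-06, edgeR) and Pygb did not (adjusted p = 0.206, edgeR). The ratio of Gys1 to Pygb was not tested. There were 5.89 ± 0.58 Gys1 counts per Pygl count (SD, n = 3) in control samples and 12.9 ± 3.99 (SD, n = 3) under ICF, with no overlap (p = 0.1 for the log2 ratio, exact permutation test).

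Per kilobase of exon, Pygb and Gys1 were the highest of the 8 genes in the control, at 26.7 ± 2.45 and 25.4 ± 2.94 CPM per kilobase (SD, n = 3), and their samples overlapped. Ugp2 followed at 17.8 and Gyg at 7.39, then Pygl at 2.99, Gbe1 at 1.70, Pygm at 0.75 and Ppp1r3c at 0.35 CPM per kilobase, with no overlap between any of these neighbours. With ICF the order was the same. Gys1, at 19.9 ± 1.55 CPM per kilobase (SD, n = 3), then overlapped with Ugp2 at 17.2 ± 2.44 (SD, n = 3), and Pygl at 1.14 ± 0.31 (SD, n = 3) overlapped with Gbe1 at 1.11 ± 0.23 (SD, n = 3).

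Other genes around glycogen were read from the same test in lists by role, 39 genes in all, of which 36 passed the filter on low counts. Of these 36, 8 fell, against 4.38% of all genes, and 0 rose, against 3.47%, at the adjusted p of 0.05 in edgeR, with a median log2 fold change of -0.097 over the 36. At an unadjusted p of 0.05, 12 were lower and 1 higher, against 13.2% and 12.4% of all genes. DESeq2 called 8 lower, against 7.26%, and 0 higher. The replicate block gave 12 lower, against 15.3% of all genes, and 1 higher, against 14.6%. The 1 was Phkb, the gene of a phosphorylase kinase subunit.

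**Figure D3:**
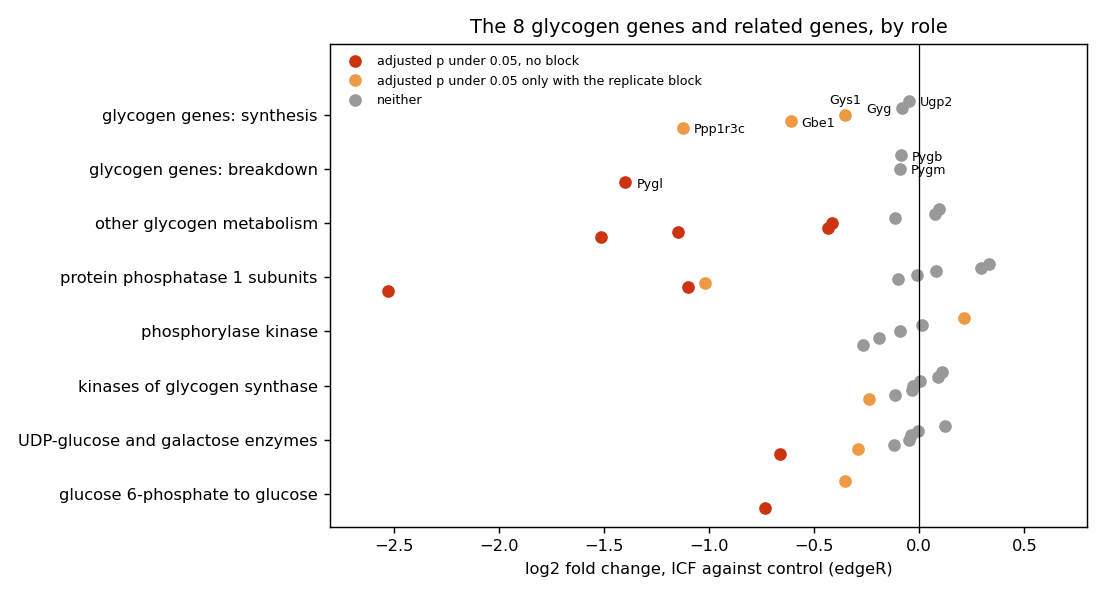
Log2 fold change between ICF and control (horizontal axis, edgeR) of the 8 glycogen genes, named, and of 36 related genes in rows by role; color gives whether the adjusted p was under 0.05 without the replicate block, only with it, or neither. The genes that fell without the block lie at -0.41 or lower, and none of the 5 phosphorylase kinase genes is among them.

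Among further genes of glycogen metabolism, 4 of 7 tested genes fell, with log2 fold changes from -1.51 to -0.41. The largest fall of these was that of Pgm1, whose phosphoglucomutase interconverts glucose 1-phosphate and glucose 6-phosphate and so joins glycogen to glycolysis in both directions. Pgm1 was at 174.7, 176.2 and 105.5 CPM in the control and 59.2, 54.4 and 46.2 CPM with ICF. Both groups had their lowest sample in replicate 3, and there was no overlap. It fell by 1.51 on the log2 scale (SE 0.27, adjusted p = 0.00274, edgeR). Epm2a, the gene of laforin, a phosphatase that removes phosphate from glycogen, went from 6.61 ± 1.08 CPM (SD, n = 3) to 2.98 ± 0.079 CPM (SD, n = 3) and fell by 1.15 on the log2 scale (adjusted p = 0.00464, edgeR). Pgm2 was named after its values were seen, as the other gene of that list with a Pgm symbol. It was at 87.0, 89.1 and 91.1 CPM in the control and 68.2, 66.2 and 66.1 CPM with ICF (adjusted p = 0.0043, edgeR). Its log2 fold change of -0.41 was smaller than that of Pgm1, with a tight spread in both groups. Gys2, the liver synthase gene, was at 0 to 0.034 CPM in every sample and was not tested.

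Among 9 genes of protein phosphatase 1, 2 glycogen-targeting subunits fell, and none of the 3 catalytic subunit genes, Ppp1ca, Ppp1cb and Ppp1cc, passed. Ppp1r3b was at 5.61, 6.29 and 4.84 CPM in the control and 2.25, 2.69 and 2.90 CPM with ICF, or -1.10 on the log2 scale (adjusted p = 0.00681, edgeR). Ppp1r3g was at 1.33, 1.44 and 0.83 CPM in the control and 0.29, 0.18 and 0.14 CPM with ICF, or -2.53 ± 0.33 on the log2 scale (SE, adjusted p = 0.00622, edgeR). Its mean count was 36.0 in the control and 6.67 with ICF, and DESeq2 gave no adjusted p. In both genes all ICF samples lay below all control samples. Ppp1r3f, another targeting subunit gene, did not pass without the block (adjusted p = 0.191, edgeR) and was lower with it (adjusted p = 0.0351, edgeR). It rested on 29, 23 and 31 counts in the control and 20, 21 and 4 with ICF, where the 4 belongs to replicate 3. DESeq2 gave it no adjusted p. Ppp1r3a had no count in any sample.

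Of the 5 phosphorylase kinase genes and of the 7 genes of kinases that act on glycogen synthase 0 passed in edgeR or DESeq2, and 1 of each passed at an unadjusted p of 0.05, with log2 fold changes from -0.27 to 0.21 and from -0.24 to 0.11. With the replicate block, Phkb rose (adjusted p = 0.0236, edgeR) and Pask, a kinase gene, fell (adjusted p = 0.00293, edgeR). Of 7 enzymes of UDP-glucose and galactose, Galk1, which encodes galactokinase, was at 280.7 ± 29.9 CPM in the control (SD, n = 3) and 177.1 ± 15.1 CPM with ICF (SD, n = 3) and fell by 0.66 on the log2 scale (adjusted p = 0.00465, edgeR), and the other 6 did not pass without the block. With it Galt, the next enzyme gene of galactose use, was lower as well (adjusted p = 0.00266, edgeR). Of the genes that turn glucose 6-phosphate into glucose, Slc37a4, the transporter that carries it into the endoplasmic reticulum, fell by 0.73 on the log2 scale (adjusted p = 0.0125, edgeR). It did not pass in edgeR without control replicate 1 (adjusted p = 0.0591), control replicate 2 (0.0719) or ICF replicate 1 (0.0607). G6pc3, the glucose 6-phosphatase gene expressed in many tissues, differed by -0.35 on the log2 scale and did not pass in edgeR (adjusted p = 0.076) but did with the block (adjusted p = 0.000351) and with DESeq2 (adjusted p = 0.036). G6pc, the glucose 6-phosphatase gene of the liver, was at 0 to 0.035 CPM and was not tested.

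The genes whose levels ran most like those of Pygl and Gys1 over the 6 samples were looked up among 11862 other genes whose counts averaged 100 or more, by Pearson's r of log2 CPM. For Pygl these were Soat1, Ak4 and G2e3 and for Gys1 they were Abcc1, Usp11 and Rps25, all with r of 0.997 or 0.998. The samples share group and library, and with 6 points and so many genes such values are a description only.

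**Figure D4:**
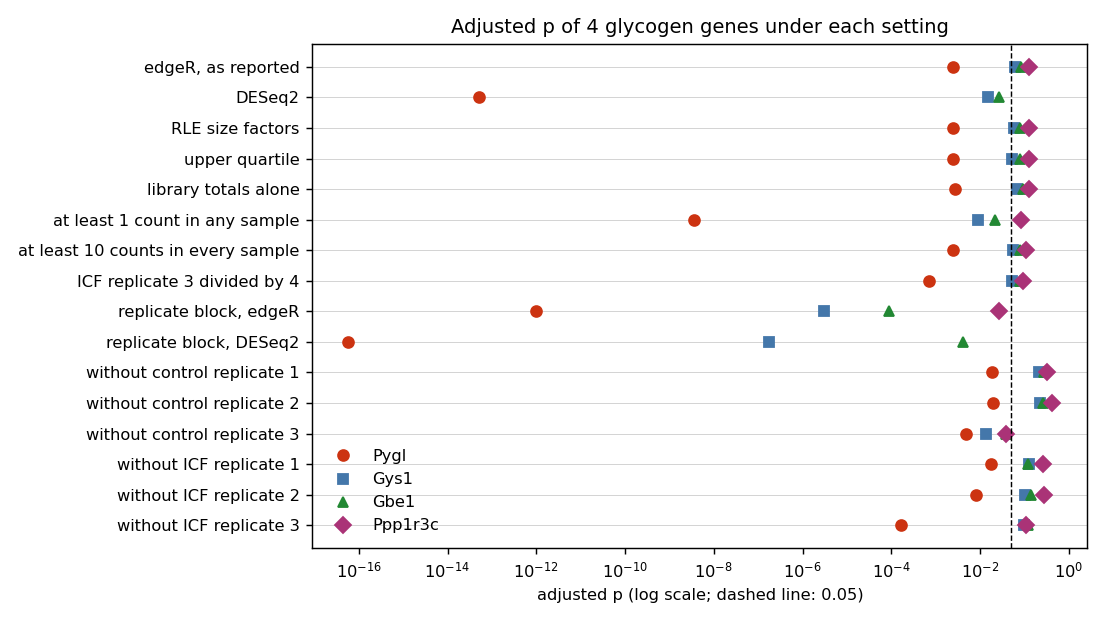
Adjusted p (horizontal axis, log scale, dashed line at 0.05) of Pygl, Gys1, Gbe1 and Ppp1r3c under the reported test and each alternative setting, with no point for Ppp1r3c in the DESeq2 rows, where it had no adjusted p. Pygl lies left of the line in every row, and Gys1 and Gbe1 pass with DESeq2, the replicate block, the loosest count filter and without control replicate 3.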

How the data were processed

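RNA sequencing covered 3 ICF and 3 control samples. Per the study's methods, strand-specific libraries were read as single reads of 75 cycles, HISAT2 did the mapping and HTSeq the counting. The submitters' processing notes also name Trimmomatic. The authors deposited whole-number counts per Ensembl gene for each sample, without normalization. HTSeq leaves out reads with more than 1 mapping place, so genes with close copies lose counts. Its 5 summary rows held 38.1% to 40.3% of the reads and were left out. The submitters' processing notes name GRCm38 and also hg38, and all gene identifiers are those of mouse. Gene names, positions and merged exon lengths came from GENCODE M21 of GRCm38, which named 50376 of 50686 identifiers.

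The test was the quasi-likelihood F test of edgeR 4.0.16 (R 4.3.3) with TMM scaling and filterByExpr by group (no block, Benjamini-Hochberg adjustment over 16729 genes, threshold 0.05). CPM are TMM-scaled, and standard errors come from SDs of log2 CPM (prior count 2), not from the fit. The edgeR test without the block was checked on simulated counts with the same dispersion for all genes, and the other tests were not checked. Alternatives were DESeq2 1.42.0, the tool of the study, RLE, upper quartile and total scaling, a looser and a stricter count filter (a total of 1 count or more, 10 or more per sample), the replicate block, ICF replicate 3 divided by 4, and each sample left out. The replicate block and the same-numbered pairs took the samples as paired by the donor numbers of the labels. The reported test and the exact permutation tests did not. Across genes, r between the deviations of a control and an ICF sample from their group's mean was 0.15, 0.197 and 0.376 for the numbers 1 to 3. Differently numbered samples gave -0.343 to 0.263, with 0.263 for control 1 and ICF 2 and 0.174 for control 2 and ICF 1, so the correlations do not single out the same numbers for donors 1 and 2. The study describes independent experiments and does not mention donors, so p-values measure the spread between these samples, which may be partly technical.

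All 8 glycogen genes are named. Of each further list, at most 3 genes past the threshold with the largest fold change are named, with those whose call turned with the block added after their values were seen, and 1 gene that this rule picks is not reported here. The genes, lists and tests were chosen with earlier results of these data known. Depth sets the precision of low genes, as Ppp1r3c at 1.03 CPM rested on 30 counts.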

Additional observations from a re-analysis of the deposited data

How the results depend on the processing

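With the replicate block, edgeR called 2445 genes higher and 2561 lower with ICF and DESeq2 1354 and 1666, against 580 and 733 without it in edgeR, while DESeq2 without the block called 877 genes higher. Of the 8 glycogen genes, 1 was lower in the reported test, against 4.38% of all genes, and 4 with the block in edgeR, against 15.3%. With DESeq2 3 were lower, against 7.26% of genes with an adjusted p, and 3 with DESeq2 and the block, against 11.7%. With at least 1 count in any sample 3 were lower, where 1019 of all genes were lower and 841 higher. None of the 8 was higher in these settings. The block changed the call of Gys1, Gbe1 and Ppp1r3c and of no other of the 8. Of the 36 related genes tested, 8 passed in the reported test, all lower, against 4.38% of all genes. With the block in edgeR 13 passed, 12 lower against 15.3% of all genes and 1 higher against 14.6%. With each sample left out in turn, 85 to 724 genes were higher and 215 to 928 lower. In these fits 1 to 4 of the 8 glycogen genes and 6 to 9 of the related genes passed. The 4 were reached without control replicate 3, where 724 of all genes were higher and 928 lower. The fewest genes passed without control replicate 2, with 85 higher and 215 lower. Pygl kept its direction and passed under all 15 alternatives. Fold changes that did not pass turned their sign in 2 cases, Pygm without control replicate 1 (0.0054 on the log2 scale) and Ugp2 without ICF replicate 2 (0.032, the highest of a range from -0.16). For Pygm that range began at -0.21. With each sample left out, the median log2 fold change lay between -0.45 and -0.28 for the synthesis genes and between -0.21 and -0.053 for the breakdown genes. The log2 ratio of Gys1 to Pygl differed by 0.88 to 1.35 and that of Pygl to Pygb by -1.62 to -1.13. Synthesis minus breakdown differed between ICF and control by 0.11 and by 0.0022 to 0.21 with samples left out. From summed levels per kilobase it differed by -0.040, so its direction turned. Within same-numbered pairs (replicate block) the log2 ratio of Gys1 to Pygl differed by 0.70 to 1.36. That of Pygl to Pygb differed by -1.68 to -0.90. Their means, 1.08 and -1.34, equal the differences between the groups by arithmetic and so check nothing. An exact sign-flip test over the pairs gave p = 0.25 for each ratio, the lowest p possible with 3 pairs. Scaling by library totals moved the median log2 fold change of all genes by 0.028, and DESeq2 with the block moved it by -0.057. The cause of these shifts was not tested. Ppp1r3c, Ppp1r3f, Ppp1r3g and Pygm are limited by low counts.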
